A study of Mus musculus with 40 samples.

Results

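Primary mammary tumors of the 66cl4 model were compared between mice given chitin together with anti-PD-1 and mice given chitin alone, over all 14318 genes of the deposited expression table. The members were the 10 tumors that the labels name for those treatments, 5 of chitin + anti-PD-1 and 5 of chitin, out of 39 tumors with values in the table. 66cl4 is a mouse mammary carcinoma line, used here as a triple-negative breast cancer (TNBC) model in the form that carries luciferase (66cl4-luc). All tumors of this model descend from that 1 line, and they grew from cells inoculated into the mammary ducts of wild-type (WT) female BALB/c mothers that had been lactating until their pups were taken away. The hosts have an intact immune system. Primary tumors were taken at 5 weeks post-inoculation (w p.i.) and RNA was made from the frozen tumor, with no sorting of cells and no stated pooling. Cells were placed in a pair of glands, so a mouse could bear more than 1 tumor, and whether the 5 tumors of a group came from separate mice is not given in the sources used here. Both groups received chitin particles from shrimp shell, 1 mg a mouse by intraperitoneal (i.p.) injection, repeated during tumor growth. The combination group also received 200 µg a mouse of an i.p. mouse antibody against PD-1, clone RMP1-14 in the mIgG1e3 format. The other 66cl4 tumors, 5 untreated and 5 given the antibody without chitin, and 10 tumors of the 4T1 TNBC line under the same chitin and chitin + anti-PD-1 treatments, were used to show where the difference between the main groups stood apart. The question was what immune checkpoint blockade (ICB) adds to the tumor transcriptome on top of chitin.

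PD-1 is a receptor on activated T-cells that dampens their signaling when it meets its ligand PD-L1 (gene Cd274) on tumor or myeloid cells, and an antibody that blocks it can release T-cell killing and interferon gamma production. Chitin is a polymer of N-acetylglucosamine that mammals do not make. Chitinase-like proteins (CLPs) bind it without cutting it, and macrophages and neutrophils that carry CLPs are known for an immunosuppressive role in breast tumors. RNA of a whole tumor mixes carcinoma cells, immune cells, stroma and any tissue taken along with the mass, so fewer cells of a type and less RNA per cell cannot be told apart in any value below.

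Values in the table are variance-stabilized (VST), a scale close to log2 for well-expressed genes and compressed for genes with few reads. A difference on this scale is therefore smaller than the log2 ratio for weakly expressed genes. Because the scale could be turned back into whole reads, the genes that the results turn on are given as normalized counts, which are reads after division by a size factor for each tumor, and the others by their VST difference. Where 1 set of values of a gene is set against another, the chitin tumors come first and the combination tumors second, both in the order of tumors 1 to 5 where single tumors are given. Reads per tumor numbered 5802662 to 13084865 in the combination group and 6183436 to 14800352 in the chitin group, and their means did not differ beyond the spread (two-sided exact permutation test, p = 0.619, n = 5 and 5, with 0.00794 the smallest p this design allows). Krt8, a keratin of simple epithelium, was abundant in all 10 tumors (3505 to 5709 normalized counts), while the epithelial adhesion genes Epcam and Cdh1 lay at 1.12 to 123 and 10.1 to 107. Macrophage C1qa was abundant as well, at 9037 to 12679. The T-cell gene Cd3e lay at only 18.5 to 49.7 normalized counts, so T-cell genes were measured on few reads. Some tumors of the combination group stood apart from the rest of their group. Tumors 3, 4 and 5 carried skeletal muscle transcripts, tumor 1 carried adipocyte transcripts, and tumors 2 and 4 carried more red blood cell and more antigen-presentation transcripts than the other 3. Lists in which these tumors lay apart are also given without them. These tumors were chosen after their values were seen, so leaving them out shifts such a list away from their side by construction. The values without them describe the remaining tumors and are not evidence of a direction.

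No gene differed between chitin + anti-PD-1 and chitin past an adjusted p of 0.05 by limma with Benjamini-Hochberg adjustment over all 14318 genes (0 genes called, 0%). Limma-voom, run on reads recovered from the table, called 0 genes as well. At an unadjusted p under 0.05, limma counted 440 genes (3.07%), 229 of them higher (1.6%) and 211 lower (1.47%) in the combination, and limma-voom counted 581. In 117 genes (0.817%) the 5 combination tumors did not overlap with the 5 chitin tumors, 62 higher (0.433%) and 55 lower (0.384%), and 76 genes met both conditions. Group means were higher in the combination for 7230 genes (50.5%) and lower for 7085 (49.5%), with a median difference of 0.00079. The median size of a difference was 0.044 against a median standard error of 0.071, so the typical gene differed by less than its error. A difference of at least 1 was reached by 15 genes (0.105%), each of them higher in the combination, and 7 of these belonged to the skeletal muscle list, 2 to the red blood cell list and 1 to the adipocyte list. Since no gene passed the adjusted threshold, the genes below are those with the smallest unadjusted p, those with the largest differences and the members of gene lists, and their values are descriptions with no call behind them. The adjusted p of limma was 1 for every gene. Beside single genes stands the p of a two-sided exact permutation test of the 5 against 5 tumors, which is not adjusted for the number of genes and cannot go below 0.00794, the value that any gene without overlap reaches. That value is also the share of genes expected without overlap if group labels were exchanged at random, close to the 0.817% found. The 3.07% at an unadjusted p under 0.05 likewise did not exceed the share that this threshold gives by itself. A lack of overlap in a single gene is therefore a description and not evidence of a difference.

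**Figure D1:**
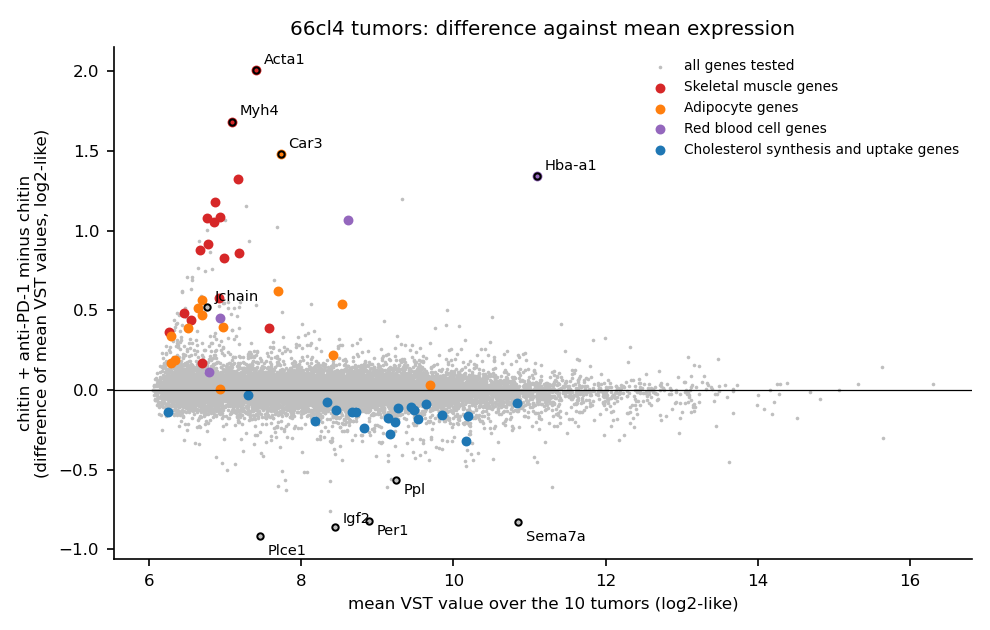
Difference of group means (chitin + anti-PD-1 minus chitin, VST scale) against mean expression for 14318 genes in 66cl4 tumors, 5 per group. Members of the skeletal muscle, adipocyte, red blood cell and cholesterol lists are colored whatever their p, and some genes are labeled. Most points lie close to 0 (1st to 99th percentile -0.24 to 0.28), and the 15 differences of at least 1 are all on the higher side.

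Per1 was the 1 gene that any alternative analysis of combination against chitin called. It encodes a repressor of the circadian clock loop and is also induced quickly by glucocorticoids and cyclic AMP. Per1 (chr11:69095108-69109965, GRCm38) had 501, 536, 372, 614 and 544 normalized counts in chitin tumors 1 to 5, and 250, 266, 229, 267 and 187 in combination tumors 1 to 5. Every combination tumor lay below every chitin tumor, and the combination tumors lay close together. Means were 513 ± 88.9 with chitin and 240 ± 33.1 with the combination (SD, n = 5 each), a ratio of 0.467. The VST difference was -0.82 ± 0.19 (SE) with a limma adjusted p of 1, and over 22 alternative analyses the adjusted p ran from 0.0449 to 1 with the difference negative in each. The value of 0.0449 came from the fit on these 10 tumors alone. Untreated tumors lay at 167 to 431 and tumors with anti-PD-1 alone at 259 to 730, so the combination tumors sat within the range of the untreated ones.

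The DNA before one of the RefSeq starts of Per1 is shown because it holds an E-box, the hexamer CACGTG to which the clock activators CLOCK and BMAL1 bind. It spans chr11:69098699-69098948 on the plus strand of GRCm38.p6, is written 5′ to 3′ and ends at the base before the start, with the E-box in capitals.
Per1: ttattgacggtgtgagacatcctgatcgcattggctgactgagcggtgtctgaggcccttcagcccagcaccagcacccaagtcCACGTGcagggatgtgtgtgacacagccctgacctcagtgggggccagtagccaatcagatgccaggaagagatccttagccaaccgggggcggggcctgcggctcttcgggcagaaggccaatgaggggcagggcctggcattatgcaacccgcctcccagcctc
The window before another, downstream start of Per1 does not hold these letters. An E-box was present before a start in 5 of the 16 clock genes that had a RefSeq window, namely Per1, Cry1, Tef, Ciart and Bhlhe41, against 6.86% of all 27025 genes with a window of that length and 9.51% of the genes of the table with one. The letters were searched on both strands, and a match is a description of the sequence.

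Other genes of the clock had no common direction. Of 19 clock genes measured, 9 were higher and 10 lower in the combination, and the median difference was -0.0011. Per1 was the single member with an unadjusted p under 0.05, on the lower side (1.47% of all genes). Its closest paralogs Per2 and Per3 differed by -0.06 each, on the VST scale. The activator Bmal1 differed by -0.06 and Clock by 0.09. The repressors Nr1d1 and Nr1d2, whose RNA oscillates in opposite phase to Bmal1, differed by 0.22 and 0.19, and the output factor Dbp by 0.04. Bhlhe40, a clock repressor induced by hypoxia and other stimuli, came next after Per1 in p, at -0.28.

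Ppl and Sirt7 had the smallest p of all genes by limma. Ppl encodes periplakin, a plakin that links keratin filaments to desmosomes. It had 536, 540, 526, 746 and 741 normalized counts in the chitin tumors and 306, 402, 487, 320 and 382 in the combination tumors, with no overlap, a ratio of 0.614 and a VST difference of -0.56 ± 0.13 (exact permutation p = 0.00794). Sirt7, a nuclear NAD-dependent deacylase known for a role in ribosomal DNA transcription, had 313, 271, 299, 319 and 331 counts against 247, 262, 248, 239 and 238. The groups of Sirt7 were separate but close, with a ratio of 0.805 and a difference of -0.22 ± 0.050.

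The other genes with the smallest p on the lower side had smaller differences. Zbtb7a, a transcriptional repressor, had 1322, 1234, 1242, 1479 and 1273 normalized counts in chitin tumors and 1101, 1124, 1112, 1106 and 1135 in combination tumors, a difference of -0.21 ± 0.052 (exact permutation p = 0.00794). The combination values of Zbtb7a spanned a narrow range that lay wholly below the chitin values. Zfpm1 (FOG1), a cofactor of GATA factors, lay at 248 to 310 against 194 to 246. Its difference was -0.24 ± 0.061 (exact permutation p = 0.00794). Midn, which guides short-lived nuclear proteins to the proteasome, differed by -0.19, and Phf13, a reader of methylated histone H3, by -0.22, both without overlap. Ezr, which encodes ezrin, a linker of the plasma membrane to cortical actin, and Stk10, a kinase that phosphorylates ezrin and its relatives, differed by -0.27 and -0.17. Each of these was separate between the groups too, whereas Ankmy1 differed by -0.37 with overlap (exact permutation p = 0.0397). In all, 9 of the 10 genes on this side did not overlap, as the choice by small p favors.

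On the higher side the genes with the smallest p were weakly expressed. Senp8, the protease that removes the ubiquitin-like protein NEDD8, had 42.5, 49.1, 41.0, 40.0 and 49.8 normalized counts in chitin tumors and 59.7, 61.1, 64.8, 61.4 and 64.5 in combination tumors. All combination values of Senp8 exceeded all chitin values, with a ratio of 1.4 and a difference of 0.20 ± 0.049 (exact permutation p = 0.00794). Zfp345, Zfp113 and Zfp874a, which encode zinc-finger proteins, were also separate between the groups. Zfp345 had 54.4, 40.3, 52.0, 59.0 and 49.8 counts against 62.2, 63.6, 75.1, 65.2 and 75.7, a difference of 0.18 ± 0.046 that was 0.094 when all tumors were thinned to equal read depth. Zfp113 lay at 38.9 to 55.5 against 56.3 to 77.4, and Zfp874a at 41.3 to 46.7 against 48.8 to 80.5, with differences of 0.21 for each. Zinc-finger genes of this kind have close copies in the genome, among which reads can be split uncertainly.

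Adcy5, an adenylyl cyclase that makes cyclic AMP from ATP, had 132, 108, 147, 109 and 98.9 normalized counts in chitin tumors and 202, 317, 160, 265 and 167 in combination tumors. The combination tumors were all higher but spread widely, from just above the highest chitin tumor to far above it, and the ratio was 1.87 (difference 0.54 ± 0.15, exact permutation p = 0.00794). Untreated tumors covered 91.4 to 281, nearly the whole span of both groups. Dnah6, a dynein heavy chain of cilia, and Mapt, which encodes the microtubule protein tau, rested on few reads. Dnah6 lay at 1.2 to 4.3 normalized counts in chitin and 5.0 to 11.4 in combination tumors, and Mapt at 0.0 to 4.3 and 4.2 to 12.2.

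**Figure D2:**
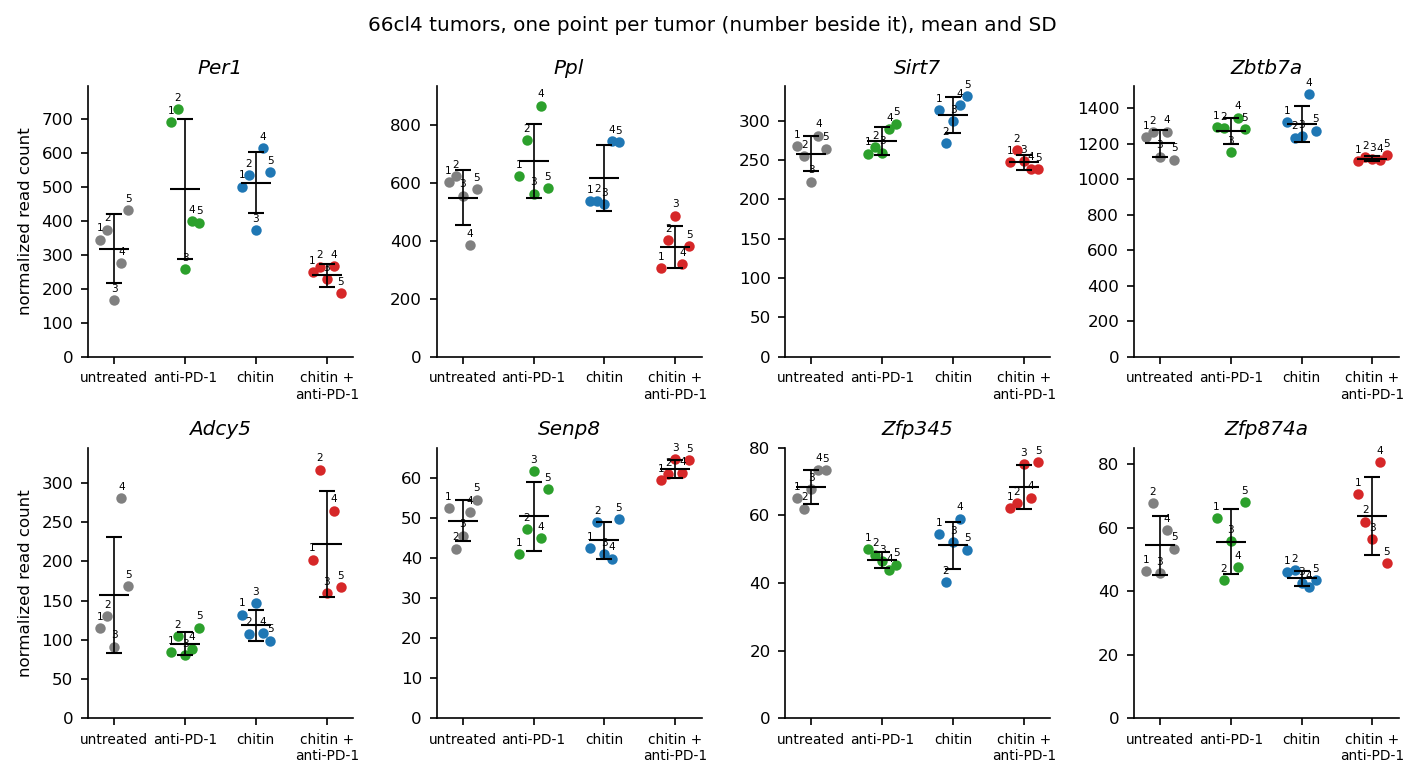
Normalized counts of 8 genes in each 66cl4 tumor of the 4 treatment groups, with the mean and SD of 5 tumors. Combination and chitin tumors are separate in each of the 8 panels, and for Per1 the combination tumors (187 to 267) lie within the span of the untreated tumors (167 to 431).

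The last 3 of the 10 higher genes, Synpo2, Myom3 and Ttn, encode proteins of the contractile apparatus, and they lead into the largest differences in the table. All 17 skeletal muscle genes measured were higher in the combination, 11 with an unadjusted p under 0.05 (1.6% of all genes), with a median difference of 0.88. Summed over the list, chitin tumors 1 to 5 had 169, 139, 139, 121 and 152 normalized counts, and combination tumors 1 to 5 had 131, 151, 6056, 1732 and 2684. Tumors 1 and 2 of the combination were therefore at the level of the chitin tumors, and the difference rested on tumors 3, 4 and 5. Without those 3 tumors the median was -0.059, with 4 members higher and 13 lower.

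Acta1, skeletal muscle actin, showed the same split. It had 1.2, 0.8, 17.9, 2.0 and 6.4 normalized counts in chitin tumors and 1.7, 0.8, 1241, 565 and 720 in combination tumors, a difference of 2.01 ± 0.80 (exact permutation p = 0.135). Without tumors 3, 4 and 5 it differed by -0.16. Myh4, a fast myosin heavy chain, had 0.0, 1.6, 1.6, 1.3 and 3.6 counts against 0.0, 2.4, 1078, 265 and 230, and Atp2a1, the calcium pump of fast fibers, had 3.5 to 10.0 against 7.6, 13.0, 692, 132 and 199. Myosin gene Myh2 and myoglobin gene Mb followed, with differences of 1.08 and 0.48. Without tumors 3, 4 and 5 these 4 genes differed by -0.058 (Myh4), 0.10 (Atp2a1), -0.034 (Myh2) and 0.030 (Mb), and Ttn by 0.25. Titin (Ttn) had 24.8, 20.9, 12.6, 17.0 and 8.5 counts against 35.3, 26.1, 272, 71.6 and 132, which was separate between the groups also in tumors 1 and 2. Untreated tumors reached 5004 and tumors with anti-PD-1 alone 967 for the list sum, from lowest values of 152 and 135.

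Adipocyte and red blood cell genes were higher in the combination in the same piecemeal way. All 14 adipocyte genes measured were higher, 2 with an unadjusted p under 0.05 (1.6% of all genes), with a median of 0.39. The list summed to 4770 in combination tumor 1 and to 1269 to 1676 in the other 4, against 1067 to 1515 in the chitin tumors. Without combination tumor 1 the median was 0.15, with 12 of 14 higher. Car3, carbonic anhydrase 3 of fat and muscle, had 5.9, 202, 4.2, 8.5 and 42.7 counts in chitin and 1165, 126, 198, 147 and 104 in combination tumors. Cfd, the fat-derived protease adipsin, had 3.5, 122, 1.6, 4.6 and 6.4 against 907, 66.0, 31.7, 105 and 29.7. In both genes chitin tumor 2 stood with the combination tumors, and the adipokine Retn was at 94.9 in combination tumor 1 and at 8.9 or less in the other 9 tumors. All 4 red blood cell genes measured were higher, with a median of 0.76 and none at an unadjusted p under 0.05. Their sum was 8636 and 9168 in combination tumors 2 and 4 and 1554 to 3327 in the other 3, against 1050 to 2297 in chitin tumors, and without tumors 2 and 4 the median was 0.28. The alpha-globin gene Hba-a1 alone gave 7561 and 8036 counts in those tumors, and its difference of 1.34 was 0.55 without them. How much muscle, fat and blood was taken along with each tumor is not given in the sources used here, and its part in these values was not tested.

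**Figure D3:**
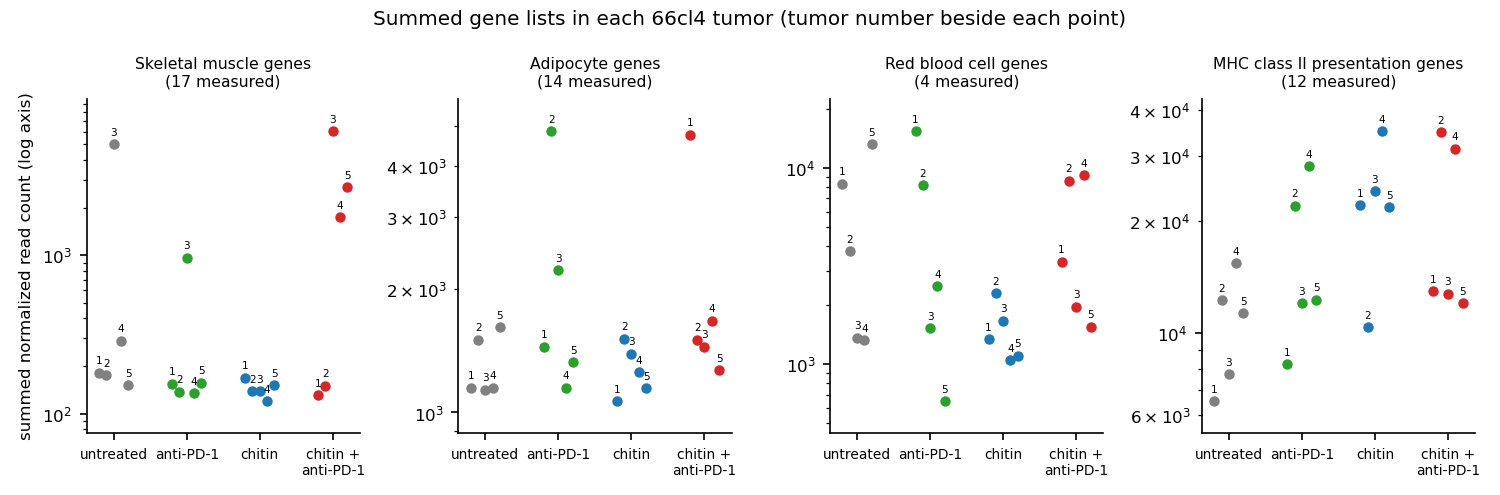
Summed normalized counts (log axis) of the skeletal muscle, adipocyte, red blood cell and MHC class II lists in each 66cl4 tumor of the 4 groups. Muscle sums of 6056, 1732 and 2684 in combination tumors 3, 4 and 5 stand far above the 121 to 169 of the chitin tumors, while combination tumors 1 and 2 lie among them.

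Beside Per1, the largest differences on the lower side were those of Plce1, Igf2, Sema7a and Thbs2. Plce1, a phospholipase C, had 46.1, 28.2, 363, 297 and 104 normalized counts in chitin tumors and 33.6, 47.3, 22.0, 33.2 and 18.0 in combination tumors, a difference of -0.92 ± 0.40 (exact permutation p = 0.0556). Chitin tumors 3 and 4 were high and chitin tumors 1 and 2 lay at combination levels. Igf2, the imprinted fetal growth factor, had 170, 2.4, 1235, 1263 and 403 against 171, 474, 58.6, 137 and 56.7, a difference of -0.86 ± 0.69 (exact permutation p = 0.31). It was led by the same chitin tumors 3 and 4, and leaving out 1 tumor at a time gave -1.50 (without chitin tumor 2) to -0.47 (without chitin tumor 4, and -0.48 without chitin tumor 3). Sema7a, a membrane-anchored semaphorin, had 2130, 2057, 3127, 2725 and 1847 counts against 1405, 1078, 1185, 900 and 1933. For Sema7a a single combination tumor, number 5, reached the chitin range, and the difference was -0.83 ± 0.31 (exact permutation p = 0.0159). Thbs2, a matrix protein that restrains vessel growth, lay at 93.0 to 652 against 98.6 to 176.

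Genes of T-cells and killing belong to the compartment at which the antibody is aimed. The T-cell receptor list had a median close to that of all genes, while most cytotoxic genes were lower by a small median. Of 17 T-cell receptor and coreceptor genes, 9 were higher and 8 lower, with a median of 0.0071 and none at an unadjusted p under 0.05. Without combination tumors 2 and 4 all 17 were lower, with a median of -0.10. The summed counts were 697 and 623 in those tumors against 372 to 402 in the other 3 and 416 to 577 in the chitin group. Combination tumors 2 and 4 were the highest of their group, so leaving them out favors that direction. Cd8a, the CD8 alpha chain, had 34.3, 24.2, 33.1, 35.4 and 24.9 counts in chitin and 20.2, 44.8, 15.2, 17.9 and 13.5 in combination tumors. Combination tumor 2 was thus the highest of all 10 for Cd8a while the other 4 combination tumors lay below all chitin tumors, and the difference was -0.15 ± 0.091 (exact permutation p = 0.167). Of 19 cytotoxic and natural killer genes, 3 were higher and 16 lower, with a median of -0.043 (-0.0097 without chitin tumor 5, and -0.12 with all 19 lower without combination tumors 2 and 4). Granzyme B (Gzmb) lay at 68.1 to 176 against 61.3 to 147, interferon gamma (Ifng) at 0.8 to 3.9 against 0.0 to 6.4, and the interleukin-18 receptor chain Il18rap at 586 to 1076 against 521 to 699.

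The target of the antibody and its ligand differed by less than their standard errors. Pdcd1, which encodes PD-1, had 20.1, 31.4, 25.8, 44.6 and 27.7 normalized counts in chitin tumors and 22.7, 45.6, 20.7, 40.9 and 20.2 in combination tumors, a difference of -0.0057 ± 0.10. Cd274 had 156, 70.9, 112, 119 and 144 against 118, 195, 76.5, 185 and 92.0, a difference of 0.064 ± 0.14. Both genes were highest within the combination group in tumors 2 and 4. Of the 14 genes of the PD-1 axis and inhibitory receptors, 9 were higher and 5 lower, with a median of 0.027 that was -0.052 without combination tumors 2 and 4, with 10 of 14 lower. Cd160, a receptor of natural killer and CD8 T-cells, was the 1 member with an unadjusted p under 0.05, on the higher side (1.6% of all genes). It lay at 1.1 to 7.1 counts in chitin and 5.1 to 10.1 in combination tumors (difference 0.16 ± 0.071, exact permutation p = 0.0238). Lag3 differed by 0.044 and Havcr2 (TIM-3) by -0.16. Of 13 regulatory T-cell and costimulatory genes, 6 were higher and 7 lower (median -0.025, and -0.082 without combination tumors 2 and 4), and Foxp3 lay at 117 to 136 counts in the combination and 111 to 144 in chitin tumors. Cd80, a costimulatory ligand on antigen-presenting cells, lay at 60.5 to 81.5 against 45.6 to 65.6.

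B-cell and plasma-cell genes held 1 gene that was separate between the groups, on the higher side (0.433% of all genes). Jchain, which joins immunoglobulin M and A into polymers in plasma cells, had 4.7, 11.3, 6.8, 9.8 and 2.8 normalized counts in chitin tumors and 57.1, 41.6, 15.8, 43.5 and 12.9 in combination tumors. Each combination tumor exceeded each chitin tumor, with a ratio of 4.81 and a difference of 0.52 ± 0.20 (exact permutation p = 0.00794). Of the 11 members measured, 9 were higher and 2 lower, with a median of 0.044 that was -0.028 without combination tumors 2 and 4. The B-cell gene Cd79a lay at 7.25 to 29.5 counts against 10.9 to 31.8. The immunoglobulin constant genes of the list were not analysed here.

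Genes of antigen presentation were lower in most combination tumors and not in all. Of 12 MHC class II presentation genes, 10 were lower, with a median of -0.15 and none at an unadjusted p under 0.05. The list summed to 22128, 10358, 24147, 35021 and 21873 in the chitin tumors and to 12958, 34847, 12752, 31411 and 12018 in the combination tumors. Combination tumors 2 and 4 were thus among the highest of all 10, and the other 3 were below all chitin tumors but number 2. Without tumors 2 and 4 the median was -0.50 with 11 of 12 lower, and without tumors 3, 4 and 5 it was 0.0032 with 5 of 12 lower. Leaving out 1 tumor at a time gave -0.29 (without chitin tumor 2) to -0.007 (without chitin tumor 4), and combination tumors 1, 3 and 5 each brought it near 0 (-0.041, -0.061 and -0.023). Cd74, the class II chaperone, lay at 2657 to 17391 against 3708 to 16385, and the peptide-loading gene H2-DMa at 368 to 852 against 414 to 895. Of 15 MHC class I genes, 14 were lower with a median of -0.064, and H2-D1, a classical class I heavy chain, lay at 4825 to 5587 against 3774 to 5418. That list had a median of -0.23 without tumors 2 and 4, with all 15 lower, 0.016 without tumors 3, 4 and 5, and 0.0018 without tumor 3 alone.

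Interferon-response lists depended on which combination tumors were counted. Of 22 interferon gamma response genes, 8 were higher and 14 lower (median -0.022), and of 25 type I interferon-stimulated genes, 16 were higher and 9 lower (median 0.017). Summed counts of the interferon gamma list were 10887 and 10541 in combination tumors 2 and 4 and 4316 to 5443 in the other 3, against 4651 to 9755 in the chitin tumors. Tumors 2 and 4 thus lay above all chitin tumors, tumor 3 below them, and tumors 1 and 5 within their range. Without tumors 2 and 4 all 22 genes were lower, with a median of -0.31, and without tumors 3, 4 and 5 the median was 0.15 with 17 higher. The type I list had medians of -0.097 and 0.071 in the same settings, and leaving out 1 tumor moved the interferon gamma median from -0.14 (without combination tumor 4) to 0.11 (without combination tumor 3).

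Myeloid lists had small positive medians. An unadjusted p under 0.05 was reached by 1 higher and 1 lower macrophage gene (1.6% and 1.47% of all genes) and by no member of the other lists of this kind. With so few members these counts do not set the lists apart. Of 26 monocyte and macrophage genes, 14 were higher and 12 lower, with a median of 0.020 that was -0.078 without combination tumors 2 and 4, with 18 lower. Timd4, the phosphatidylserine receptor TIM-4 of resident macrophages, had 286, 135, 135, 197 and 159 normalized counts in chitin and 99.1, 127, 73.0, 134 and 132 in combination tumors. The groups of Timd4 did not overlap, although the highest combination and lowest chitin tumors differed by little, and the difference was -0.39 ± 0.19 (exact permutation p = 0.00794). Vsig4, a complement receptor of tissue macrophages, had 94.5, 150, 85.2, 64.9 and 179 against 166, 126, 152, 171 and 206, with overlap and a difference of 0.33 ± 0.15 (exact permutation p = 0.0952). The mannose receptor gene Mrc1 (CD206) differed by 0.20 (0.10 without chitin tumor 3) and Csf1r, which encodes the main growth factor receptor of macrophages, by 0.024. Of 16 dendritic cell genes, 12 were higher (median 0.033, and -0.0089 with 9 lower without combination tumors 2 and 4). Among them Itgae (CD103), chosen after its values were seen, lay at 17.7 to 34.1 counts against 34.4 to 47.3. Its groups were barely apart (difference 0.17 ± 0.083, and 0.095 at equal read depth). Lack of overlap on the higher side was met by 0.433% of all genes and fixes the exact permutation p at 0.00794, so that p is no support here. Itgax (CD11c) lay at 63.8 to 97.8 against 47.0 to 75.8. Of 16 neutrophil genes, 10 were higher and 5 lower (median 0.066), with S100a8 at 16.3 to 29.8 against 24.4 to 38.3 and S100a9 at 24.7 to 49.8 against 45.6 to 63.9. Of 12 mast-cell, basophil and eosinophil genes, 9 were higher (median 0.098), led by mast-cell proteases such as Cma1 and Cpa3 at 0.55 each. The median was 0.090 with 9 higher without combination tumors 2 and 4, the highest of their group in this list. Without combination tumors 3, 4 and 5 it was 0.038 with 10 higher. The eosinophil receptor gene Ccr3 differed by 0.17 on fewer than 11 counts in any tumor. Of 15 complement genes, 10 were higher with a median of 0.025 that was -0.042 without combination tumors 2 and 4.

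No chitinase-like or chitin-sensing gene was without overlap between the groups, both of which had received chitin. Of 13 measured, 6 were higher and 7 lower, with a median of -0.043 (-0.0099 without chitin tumor 2) and none at an unadjusted p under 0.05. Chil1 (CHI3L1) had 9.5, 72.5, 19.5, 38.0 and 0.0 normalized counts in chitin tumors and 60.5, 41.6, 11.0, 35.8 and 0.6 in combination tumors, a difference of 0.074 ± 0.25. Its values ranged from under 1 to over 60 counts in both groups, and tumor 5 of either group was lowest. Chil3 differed by 0.04. Chid1, a chitinase-domain protein, lay at 445 to 579 against 527 to 595 (difference 0.089 ± 0.057, and 0.049 without chitin tumor 5). The adaptor gene Myd88, which carries signals of Toll-like receptors, differed by -0.11, and the chitin receptor genes Clec7a (dectin-1), Tlr2 and Lgals3 (galectin-3) by -0.08, -0.06 and -0.22. Of 37 cytokine and chemokine genes, 21 were higher and 16 lower (median 0.019). Tnf lay at 16.9 to 44.9 counts against 26.1 to 39.8 and Ccl2 at 312 to 551 against 362 to 672.

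Genes that the study itself measured as proteins or transcripts in these models gave 36 in the table out of 39. Of these, 16 were higher and 20 lower in the combination, none with an unadjusted p under 0.05, and the differences ran from -0.22 (Lgals3) to 0.20 (Mrc1) with a median of -0.028. Since the study chose them on these models, their direction is not independent evidence. Chil4, Mpo and Ly6g were not analysed here.

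Sterol genes were one-sided in these means. All 20 cholesterol synthesis and uptake genes measured, among them the sterol sensor Insig1, were lower in the combination, with a median of -0.14 and none at an unadjusted p under 0.05. The list summed to 9031, 14340, 10721, 11378 and 11109 normalized counts in chitin tumors and to 9689, 7831, 11770, 7665 and 12990 in combination tumors. Tumors 2 and 4 were the lowest of all 10 and the other 3 lay within the chitin range, so that without tumors 2 and 4 the median was -0.0097, with 9 higher and 11 lower. Leaving out chitin tumor 2 or combination tumor 4 alone gave -0.070 and -0.076, and leaving out combination tumor 5 gave -0.22. Lss, lanosterol synthase, had 288, 338, 300, 330 and 342 against 264, 235, 340, 234 and 335. Tumors 2 and 4 were the lowest here too, tumor 1 also lay below all chitin tumors, and the difference was -0.14 ± 0.082.

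Sterol genes are driven by SREBP2 together with NF-Y, which binds the CCAAT box. The DNA before the start of Lss is shown as the example, at chr10:76531355-76531604 on the plus strand of GRCm38.p6, with a CCAAT box read on the opposite strand (ATTGG) in capitals.
Lss: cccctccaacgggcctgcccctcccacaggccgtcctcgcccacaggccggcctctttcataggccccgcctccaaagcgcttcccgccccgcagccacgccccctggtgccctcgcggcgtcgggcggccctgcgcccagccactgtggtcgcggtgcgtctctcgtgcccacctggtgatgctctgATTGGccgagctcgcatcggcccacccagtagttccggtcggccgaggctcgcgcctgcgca
A CCAAT box on either strand was found in all 13 list members that had a window, against 37.5% of all genes with one and 40.5% of those in the table. The sterol regulatory element TCACNCCAC was found in 1 of the 13, Hmgcs1, against 1.22% in both.

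Hypoxia and glycolysis genes were lower in 20 of 21, with a median of -0.13 and none at an unadjusted p under 0.05. Without chitin tumor 3 the median was -0.058 with 14 of 21 lower, and without chitin tumor 2 it was -0.20. The list summed to 67226, 57489, 91584, 74650 and 60256 in chitin tumors and to 71724, 58532, 59766, 61922 and 63026 in combination tumors. Chitin tumor 3 stood highest, followed by chitin tumor 4 and combination tumor 1 close together. The remaining tumors of both groups lay at 57489 to 67226. Ankrd37, a small ankyrin-repeat gene induced by hypoxia, had 130, 66.9, 98.8, 73.4 and 47.7 counts against 91.6, 55.4, 35.1, 43.5 and 41.0, a difference of -0.29 ± 0.16 (exact permutation p = 0.111). The hexokinase gene Hk1 differed by -0.13 (-0.057 without chitin tumor 3) and Car9, the membrane carbonic anhydrase IX that marks hypoxic tumor, by -0.44. The one member with a positive difference was Adm, at 0.16.

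The DNA before the start of Ankrd37 is shown for its copies of ACGTG, the core of the site bound by hypoxia-inducible factors, in capitals, at chr8:45999851-46000100 and read on the minus strand of GRCm38.p6.
Ankrd37: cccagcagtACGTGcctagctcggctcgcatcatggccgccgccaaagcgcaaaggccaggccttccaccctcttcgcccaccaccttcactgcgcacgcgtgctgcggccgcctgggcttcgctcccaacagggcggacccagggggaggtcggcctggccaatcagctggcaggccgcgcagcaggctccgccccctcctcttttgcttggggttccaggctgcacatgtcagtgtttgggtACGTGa
ACGTG was found on either strand in 14 of 20 list members with a window, against 18.5% of all genes with one and 24.4% of those in the table. These letters are also part of the E-box CACGTG.

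Genes of proliferation also differed between the combination tumors. Of 28 cell cycle genes, 9 were higher and 19 lower (median -0.017). Without combination tumors 2 and 4, the lowest of the 10 in summed counts, 27 were higher (median 0.10), and without tumors 3, 4 and 5 all 28 were lower (median -0.14). Mki67, the Ki-67 gene, lay at 1541 to 2964 normalized counts against 1744 to 2639. Of 18 p53 pathway and cell death genes, 5 were higher and 13 lower (median -0.036, and -0.0040 without combination tumors 2 and 4), and 3 had an unadjusted p under 0.05, 1 higher (1.6% of all genes) and 2 lower (1.47%). Cdkn1a, which encodes the cell cycle inhibitor p21, had 555, 532, 709, 680 and 660 counts in chitin and 448, 460, 479, 464 and 502 in combination tumors. The combination tumors of Cdkn1a were tightly grouped below all chitin tumors, with a ratio of 0.75 and a difference of -0.33 ± 0.13 (exact permutation p = 0.00794). Sesn2, a stress-induced inhibitor of mTORC1, differed by -0.17 ± 0.076 (exact permutation p = 0.0556).

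Of 20 immediate-early genes, 4 were higher and 16 lower, with a median of -0.096 that was -0.032 without chitin tumor 3 and -0.029 without combination tumors 2 and 4. Klf4, a growth-responsive zinc-finger factor, had 507, 524, 1146, 801 and 608 against 582, 475, 515, 444 and 475, a difference of -0.39 ± 0.16 (exact permutation p = 0.0556) that was -0.23 without chitin tumor 3. The nuclear receptor gene Nr4a2 lay at 102 to 142 against 74.6 to 123 (difference -0.23 ± 0.10, exact permutation p = 0.0476). Of 20 heat shock and unfolded protein genes, 7 were higher and 13 lower (median -0.015, and 0.057 without chitin tumor 3). The small heat shock protein gene Hspb1, which muscle also expresses, was the member at small p, with 16.5, 37.1, 37.8, 24.9 and 14.2 counts against 45.4, 36.7, 65.4, 114 and 58.4 (difference 0.46 ± 0.14, exact permutation p = 0.0238). Without combination tumors 3, 4 and 5, the tumors with muscle transcripts, it differed by 0.23.

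Stromal and epithelial lists were split in direction. Of 22 epithelial and mesenchymal genes 14 were higher (median 0.039), but 18 were lower without combination tumors 2 and 4 (median -0.082), and leaving out 1 tumor gave -0.066 (without chitin tumor 5) to 0.15 (without chitin tumor 2). Of 25 fibroblast and collagen genes 13 were higher (median 0.025, and -0.049 without combination tumors 2 and 4). Of 18 endothelial and lymphatic genes 6 were higher (median -0.026, and 0.033 without combination tumors 2 and 4). Timp1, an inhibitor of matrix metalloproteinases, had 341, 322, 853, 542 and 375 counts against 338, 324, 338, 265 and 311, and its difference of -0.42 was -0.23 without chitin tumor 3. Of 7 milk protein and lactation genes, 4 were higher (median 0.10, and -0.064 without combination tumor 1). The casein gene Csn3 had 3.5, 12.1, 25.8, 44.6 and 0.7 counts against 198, 67.6, 7.6, 84.4 and 2.8, so casein reads were spread unevenly over the tumors of both groups. Its difference of 0.57 was 0.31 without combination tumor 1, and the whey gene Wap was not analysed here. Of the skin and hair list 2 genes were measured, 1 higher and 1 lower (median -0.0055).

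**Figure D4:**
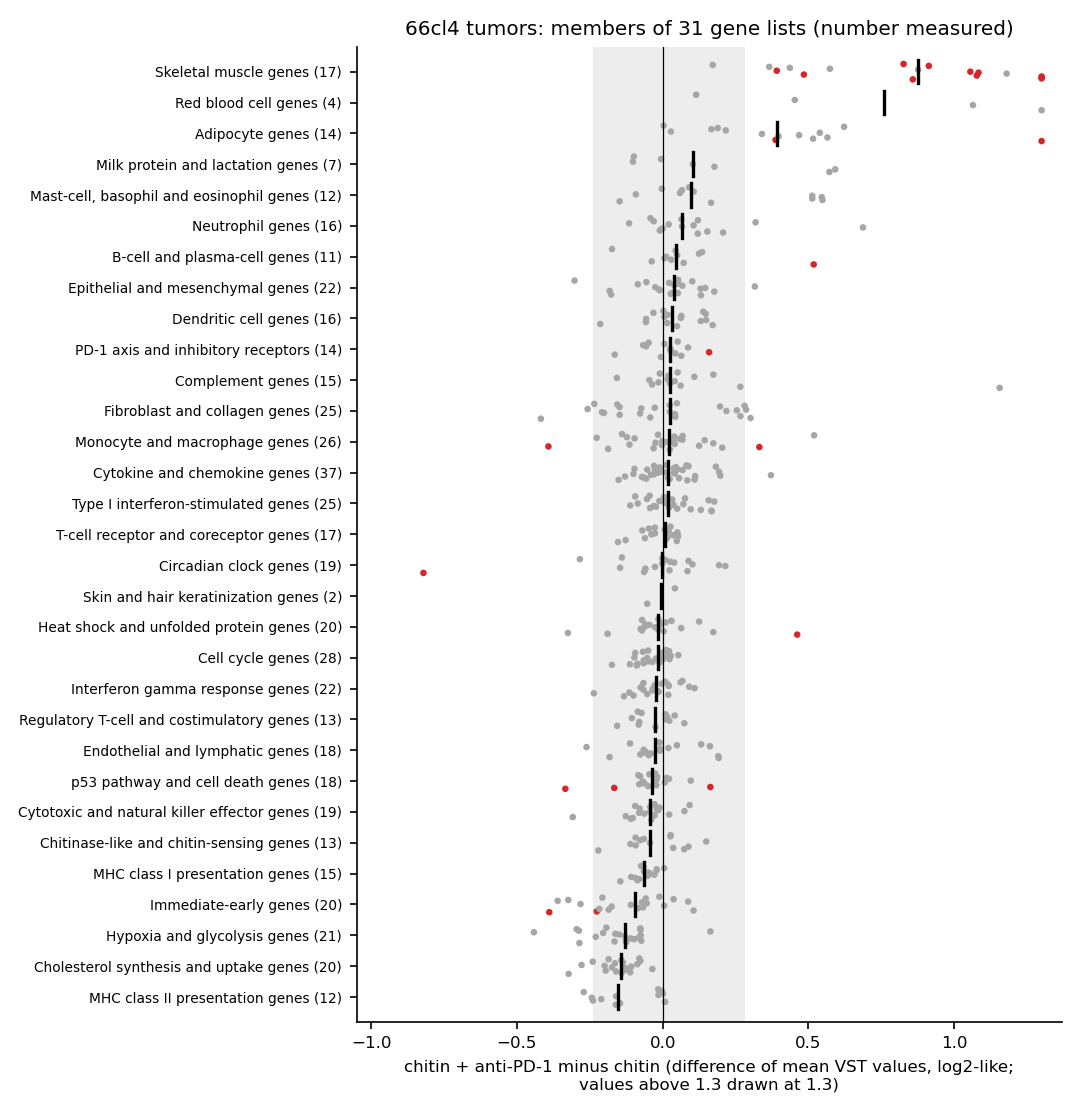
VST differences (chitin + anti-PD-1 minus chitin) of each measured member of 31 gene lists in 66cl4, with a black bar at the list median, red for an unadjusted p under 0.05, a grey band for the 1st to 99th percentile of all genes (-0.24 to 0.28), and values above 1.3 drawn at 1.3. Skeletal muscle, red blood cell and adipocyte members reach beyond the band on the higher side, and Per1 lies alone below the other clock genes.

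The same addition of anti-PD-1 was measured without chitin (anti-PD-1 minus untreated) and in 4T1 tumors (chitin + anti-PD-1 minus chitin), and neither comparison shares tumors with the one above. By the limma interaction test, no gene differed between anti-PD-1 added to chitin and anti-PD-1 alone past an adjusted p of 0.05 (0 called, smallest adjusted p 0.0585), 714 genes did at an unadjusted p under 0.05 (4.99%), and limma-voom also called 0. By the limma test of the difference between the models, 0 genes were called (smallest adjusted p 0.673), 516 had an unadjusted p under 0.05 (3.6%), and limma-voom called 0. Across all 14318 genes, which are not independent replicates, the differences had a Spearman correlation of -0.028 with those of anti-PD-1 alone and of -0.031 with those in 4T1. Signs matched for 50.3% and 48.6% of genes, about as often as not.

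Zfp345 came closest to the threshold. It was lower with anti-PD-1 alone (43.8 to 50.1 normalized counts against 61.9 to 73.4 in untreated tumors) and higher with anti-PD-1 on top of chitin, and the interaction was 0.41 ± 0.065 (limma adjusted p = 0.0585, called under 2 of the alternative settings and without chitin tumor 4). Levels with chitin alone resembled those with anti-PD-1 alone, and levels with both resembled those of untreated tumors. Per1 differed by 0.46 ± 0.19 with anti-PD-1 alone and by 0.12 ± 0.14 in 4T1, against -0.82 with chitin present in 66cl4. The interaction of Per1 was -1.28 ± 0.27 (limma adjusted p = 0.841) and its difference between models -0.94 ± 0.25 (limma adjusted p = 0.673). Ppl gave -0.81 ± 0.18 and Adcy5 0.90 ± 0.21 for the interaction, each with an adjusted limma p of 0.841. Of the 20 genes with the smallest p, 14 had the opposite sign with anti-PD-1 alone and 13 in 4T1, and 17 had an unadjusted p under 0.05 in the interaction, which contains the difference by which they were chosen.

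**Figure D5:**
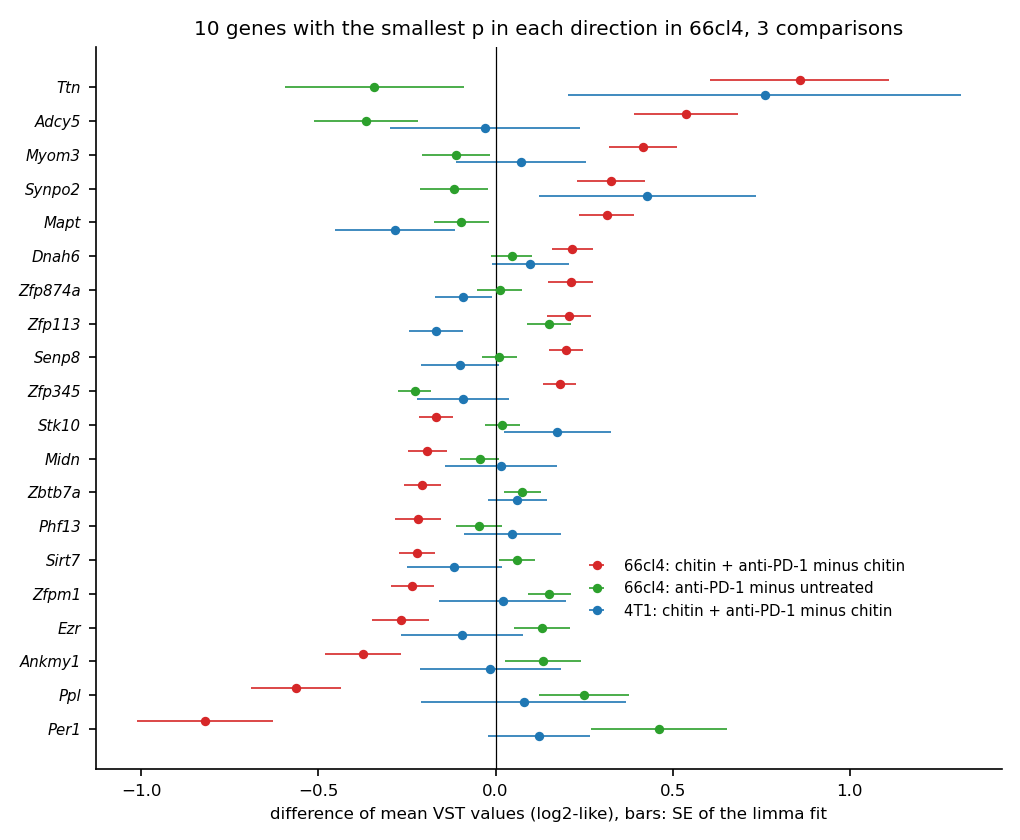
VST differences with SE for the 20 genes with the smallest p, 10 in each direction, in 66cl4 combination against chitin, beside anti-PD-1 against untreated in 66cl4 and combination against chitin in 4T1. The values of Per1 are -0.82, 0.46 and 0.12 in the 3 comparisons, and no gene passed the adjusted threshold in the tests between them.

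In the other comparisons some lists kept the direction of the main comparison and some did not, given here as counts. The direction was the same for MHC class II and muscle genes in 4T1 and for hypoxia genes with anti-PD-1 alone. MHC class II genes were higher in 12 of 12 with anti-PD-1 alone (median 0.32) and lower in 10 of 12 with the combination in 4T1 (median -0.25). Cholesterol genes were higher in 19 of 20 in both (medians 0.11 and 0.088). Hypoxia genes were lower in 20 of 21 with anti-PD-1 alone (median -0.11) and higher in 18 of 21 in 4T1 (median 0.14). Interferon gamma response genes were higher in 21 of 22 with anti-PD-1 alone (median 0.23) and in 11 of 22 in 4T1. Muscle genes were lower in 17 of 17 with anti-PD-1 alone (median -0.31) and higher in 17 of 17 in 4T1 (median 0.74). Single tumors weighed on these counts too. The muscle sum was 5004 in untreated tumor 3 and 152 to 290 in the other untreated tumors. With anti-PD-1 alone it was 967 in tumor 3 and 135 to 158 in the others. The MHC class II sum was 22062 and 28241 in anti-PD-1 tumors 2 and 4 and 8230 to 12294 in the others, against 6547 to 15397 in untreated tumors. Over all genes 51.1% were higher with anti-PD-1 alone and 51.8% in 4T1, and no list was tested for a difference between comparisons.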

How the data were processed

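Stranded RNA-seq libraries were made from whole frozen primary tumors. The submitters' processing notes name HISAT2 and the build mm10, and the authors deposited one table of variance-stabilized (VST) values from DESeq2, on a log2-like scale, for 14318 genes. The lowest value, 6.05, marks 0 reads, and inverting the transformation gave whole reads for 100% of values (tolerance 0.001), from which normalized counts and depth were taken. Groups followed the labels, with 5 tumors each. Tumors of a group may share a mouse, so p-values measure the spread between tumors and may be too small. Differences were tested with limma 3.58.1 (R 4.3.3, mean-variance trend) over all 20 tumors of 66cl4, which shared 1 estimate of spread, or over 39 tumors for the contrast between models, with Benjamini-Hochberg adjustment and a threshold of 0.05. Single genes got a two-sided exact permutation test on VST values, and lists no test. Named were the 10 genes with the smallest limma p in each direction, the 5 largest differences in each direction at a mean of at least 10 normalized counts, genes the study measured, and for each of 32 lists up to 4 members with an unadjusted p under 0.05 or else the 2 with the smallest p. Other members, Itgae and marker genes among them, were chosen after their values were seen. The members and lists were chosen with earlier results of these data known. A few genes that the rule names are not reported here. Sequences and positions came from RefSeq GRCm38.p6. Scripts were tested on simulated data. Alternatives were a filter on low values, no trend, fewer or more groups in the fit, median centring, quantile normalization, array weights, a replicate block, limma-voom on recovered reads, equal depth (5105898 reads a tumor), and leaving out tumors.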

Additional observations from a re-analysis of the deposited data

Results flagged for a closer look

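In groups of 5, a tumor was listed when its gap to the nearest other tumor took up most of the range of its group by Dixon's criterion, which chance meets in about 1 in 20 groups. Of 218 groups tested, 8 were listed, fewer than that rate gives. On the VST scale, combination tumor 1 was high in Car3, a gene of fat and muscle, at 10.34 (others 7.76 to 8.31). It was also high in the fat genes Retn, at 7.69 (6.35 to 6.58), and Cfd, at 10.02 (7.0 to 7.76). The summed adipocyte list of that tumor was 4770 normalized counts against 1269 to 1676, and its summed neutrophil list was 4329 against 2381 to 2936. Chitin tumor 2 was high in Cfd, at 7.88 on the VST scale against 6.27 to 6.50. Combination tumor 2 was high in Cd8a, at 7.21 against 6.70 to 6.84. Combination tumor 4 was high in the sum of the 2 skin and hair genes, at 40.9 normalized counts against 27.7 to 30.2.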

How the results depend on the processing

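The count of genes past an adjusted p of 0.05 was 0 under every alternative but one: with only the 10 tumors compared in the fit it was 1 (Per1, lower), and the cause was not tested. Genes with an unadjusted p under 0.05 numbered 675 in that fit, 123 with both models in 1 fit and 895 with array weights, against 440. Leaving out each tumor gave 305 to 572 (lowest without combination tumor 4) and 0 to 0 called. The interaction called 1 gene (Zfp345) with no mean-variance trend, 1 with median centring, and 0 to 1 when each tumor was left out. The model contrast gave 0 to 0. The difference in mean reads between the groups ran from -1964490 to 189738, and the positive value was without chitin tumor 3.

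Same-numbered combination and chitin tumors had correlations of deviations of 0.014, -0.29, -0.094, 0.27 and 0.010. Differently numbered tumors reached -0.40 and 0.38. These values cannot show whether equal numbers share a cage, day or batch, which is not given in the sources used here. The tumors were treated as unpaired. With a replicate block 0 genes were called in all 3 contrasts and 516 had an unadjusted p under 0.05.

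Differences near 0 or resting on single tumors turned sign. Without combination tumors 3, 4 and 5, chosen after seeing the data, values were -0.16 for Acta1, -0.058 for Myh4, -0.034 for Myh2, 0.015 for Cd8a, 0.056 for Pdcd1, 0.027 for H2-DMa and -0.0082 for Ccl2. Without combination tumors 2 and 4, also chosen then, they were -0.17 for Cd274, -0.055 for Lag3, -0.077 for Csf1r, -0.083 for Chil1 and 0.049 for Mki67. Equal read depth gave 0.080 for Pdcd1 and 0.0058 for Foxp3, array weights gave -0.0086 for Cd274 and -0.030 for Csf1r, and limma-voom gave -0.025 for Chil1. Leaving out each tumor gave ranges of -0.092 to 0.019 for Ifng, -0.20 to 0.0053 for Gzmb, -0.063 to 0.047 for Pdcd1, -0.029 to 0.16 for Cd274, -0.085 to 0.12 for Lag3, -0.051 to 0.0023 for Foxp3, -0.031 to 0.072 for Csf1r, -0.12 to 0.25 for Chil1, -0.016 to 0.16 for Ccl2 and -0.21 to 0.013 for Mki67.

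List medians that turned sign when 1 tumor was left out ran from -0.14 to 0.11 for interferon gamma, -0.028 to 0.056 for type I interferon, -0.050 to 0.025 for T-cell, -0.017 to 0.041 for PD-1 axis, -0.0026 to 0.089 for dendritic cell, -0.027 to 0.055 for macrophage, -0.022 to 0.070 for complement, -0.016 to 0.057 for fibroblast, -0.066 to 0.15 for epithelial and mesenchymal, -0.082 to 0.026 for cell cycle, -0.055 to 0.057 for heat shock, -0.070 to 0.021 for endothelial, -0.0095 to 0.033 for cytokine, -0.041 to 0.010 for clock, -0.12 to 0.0018 for MHC class I, -0.064 to 0.16 for milk, -0.032 to 0.014 for skin and -0.044 to 0.0038 for the study's genes. On the log2 scale of limma-voom, list medians of sparse genes were larger, at 3.09 for muscle, 1.35 for adipocyte, 1.28 for red blood cell and 0.77 for mast-cell genes. With the 25% of genes of lowest mean left out, no skin and hair gene remained. At equal read depth Zfp345 differed by 0.094 instead of 0.18.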

Other observations

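Combination tumors 2 and 4 were the 2 highest of their group in 14 of 31 gene lists by summed normalized counts: T-cell, PD-1 axis, regulatory T-cell, B-cell, interferon gamma, type I interferon, MHC class I, MHC class II, dendritic cell, macrophage, mast-cell, complement, red blood cell and fibroblast genes. Both were the lowest in the cholesterol and cell cycle lists, with 7831 and 7665 normalized counts against 9689 to 12990, and 23991 and 24480 against 27454 to 34078. The lists share genes and tumors and are not separate observations.

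H19 and Cd44 were chosen after their values were seen and lie outside the rule for named genes. H19, an imprinted noncoding RNA that neighbors Igf2 and is expressed from the other parental allele, had 5.9, 28.2, 36.8, 40.0 and 7.8 normalized counts in chitin tumors and 52.9, 69.3, 196, 160 and 102 in combination tumors. The groups did not overlap, the ratio was 4.88 and the VST difference 0.93 ± 0.30 (exact permutation p = 0.00794, limma adjusted p = 1), and untreated tumors covered 5.01 to 300. Igf2 had the opposite sign, at -0.86 ± 0.69. Cd44, a hyaluronan receptor of tumor and immune cells, had 1957, 2033, 2859, 3055 and 2503 counts against 1911, 1643, 1826, 1459 and 1952, again without overlap (difference -0.46 ± 0.16, exact permutation p = 0.00794, limma adjusted p = 1). With anti-PD-1 and no chitin Cd44 differed by 0.37 ± 0.16, and its interaction was -0.83 ± 0.23 (limma adjusted p = 0.841).

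For most genes the SD within the group was smaller in the combination, and this was not tested. The SD over 5 tumors was larger in the combination than in the chitin group for 38.6% of genes, with median SDs of 0.089 and 0.11 on the VST scale. Genes share the same 5 tumors of a group and are not separate observations, so a single tumor can weigh on many of them.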
